A study of Mus musculus with 8 samples.

Results

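Voltage-gated calcium and sodium channels, the hyperpolarization-activated HCN channels and the TRPC, TRPM and TRPV channels were followed in sorted dopaminergic neurons of the embryonic mouse midbrain. The genes were chosen by name, as every gene whose symbol in the annotated probe table of the series begins with Cacna, Cacnb or Cacng, or is a numbered Scn alpha or beta subunit, an Hcn gene or a Trpc, Trpm or Trpv gene. This gave 64 genes of the 24028 named on the array, read by 72 probes of that table, and 6 of the genes had more than 1 such probe. The probe with the highest mean signal over both channels stood for its gene. No measured value was used to choose the genes.

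Calcium channels open on depolarization and couple electrical activity to transmitter release and calcium entry, with a pore-forming alpha1 subunit carried to the membrane by alpha2delta and beta subunits. Sodium channels carry the upstroke of the action potential, HCN channels pass an inward cation current on hyperpolarization, and TRP channels are cation channels opened by receptor signalling, calcium, oxidants, temperature or chemical ligands. In adult midbrain dopaminergic neurons the L type calcium channels, sodium channels and HCN channels are known for their part in autonomous pacemaking.

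The cells came from E14.5 embryos of genotype Pitx3(gfp/+), in which 1 copy of Pitx3, a transcription factor gene of midbrain dopaminergic neurons, carries Gfp. All groups share this genotype, and no group without the Gfp allele was analysed here. Rostral and caudal parts of the ventral midbrain were separated, dissociated with papain and sorted for Gfp, which gave 4 rostral and 4 caudal pools of Gfp-positive cells, each from 5 to 7 embryos of mixed litters. Each array compared 1 such pool, in Cy3, with a single Cy5 reference that the study had pooled from the Gfp-negative cells of these specimens. Each value below is a log2 ratio of a Gfp-positive pool over that reference after normalization, so 1 means 2-fold above it.

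Of the 55681 probes, 62.5% to 70.4% per array gave a sample signal well above background, and 54.0% to 63.5% a reference signal. All 12 dopaminergic markers examined were called above the reference, with a median log2 ratio of 3.49. All 5 pericyte and smooth muscle markers and all 6 erythroid markers were called below it, while 0 of 5 microglial markers were called by limma in either direction, and 0 reached an unadjusted p below 0.05. All 7 progenitor and radial glia markers tested were also called below the reference, with a median of -3.33. Of 10 pan-neuronal markers, 6 were called above the reference and 3 below, with a median of 0.22. In pooled RNA, fewer cells of a type and less RNA per cell cannot be told apart. The reference was 1 RNA pool in 1 dye on every array, so its own spread is not in the tests and the ratios include whatever the dyes contribute. Precision is limited by the number of arrays, and the tests see only how these pools vary.

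Most of the channel genes could be measured. The probes of 43 of the 64 genes gave a signal well above background on all 8 arrays in the sample, those of 36 in the reference, and those of 35 in both. Scn10a and Scn7a, a sodium channel of sensory neurons and the sodium-sensing relative of the family, and Trpc7 and Trpv5 were not well above background in either channel on any array. A gene was tested against the reference where its probe was well above background in either channel on at least 4 of 8 arrays, and between the parts where this held in the sample channel. Thus 56 genes were tested against the reference and 55 between rostral and caudal pools. Cacna1c, Trpc1 and Trpv3 also stayed untested in both comparisons, and Cacna2d4 between the parts.

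The first comparison asked which channel genes stood higher or lower in the Gfp-positive cells than in the Gfp-negative cells around them. Of 56 genes tested, 37 were higher in the Gfp-positive cells (66.1%) and 8 were lower (14.3%) by limma at a Benjamini-Hochberg adjusted p below 0.05, and 11 were not called. Over all 18633 genes tested, 34.6% were called higher and 36.8% lower. The median log2 ratio of the channel genes was 0.34, against -0.00 over all genes, and 76.8% of them lay above 0, against 49.7% of all genes. By loess 8 of the 37 (14.3% of those tested) were at least 2-fold higher and 3 were at least 2-fold lower (5.36%), and some of the others have only a lower bound. The corresponding shares of all genes were 3.37% and 9.71%.

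Scaling moved the whole array. Centring each array on its median in place of loess put the median of all genes at 0.13 and gave 8439 genes higher and 5274 lower, where loess gave 6450 and 6865. Under that centring 36 channel genes were called higher and 6 lower, with a median of 0.44. The scanner software's processed signals gave 36 channel genes higher and 8 lower, where 7324 and 6253 of all 18633 genes were called. The median was 0.66 for the channel genes against 0.05 over all genes. With these signals 15 called channel genes were at least 2-fold higher and 5 at least 2-fold lower, but the same count was not made over all genes. None of the 37 genes called higher changed sign under either scaling, and of the 8 called lower only Trpv6 did, at 0.07 under median centring.

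**Figure D1:**
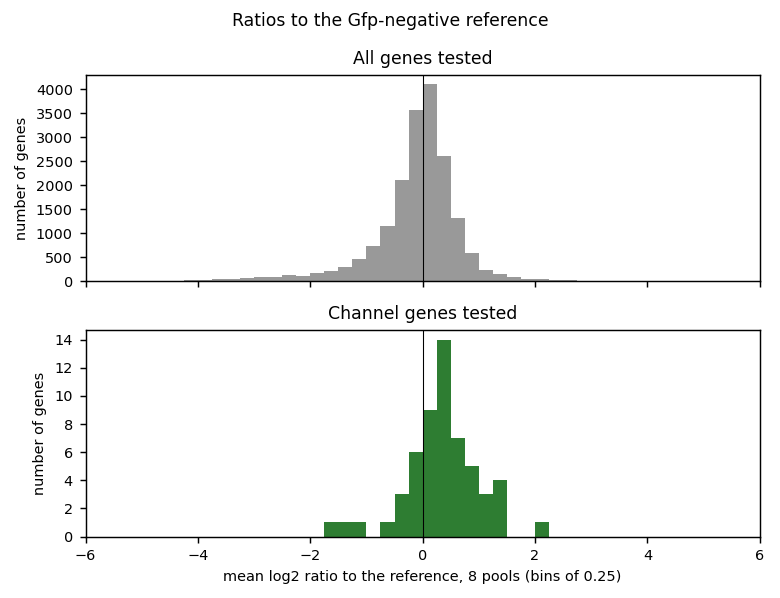
Histograms of the mean log2 ratio to the Gfp-negative reference over 8 pools, in bins of 0.25, for all 18633 genes tested (upper panel) and the 56 channel genes tested (lower panel). The vertical line marks equal levels, and the channel genes lie mostly to its right, with a median of 0.34.

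Of the 37 higher genes, 24 were well above background in both channels on all 8 arrays and 28 had all 8 ratios above 0. For 8 of them the reference was not well above background on any array, so that their excess is only a lower bound. Among these were Cacna1b (at least 1.23-fold), Cacna1f (at least 1.78-fold), Cacnb2 (at least 2.03-fold), Cacng1 (at least 1.26-fold), Hcn4 (at least 1.40-fold), Scn9a (at least 1.64-fold) and Trpv1 (at least 1.58-fold). Each bound sets the sample signal against the higher of the dimmest measurable signal and the probe's own reference signal. That sample signal is a mean over all 8 arrays, but was well above background on only 4 of them for Hcn4. The number was 5 for Scn9a, 6 for Trpv1 and Cacna1f and 7 for Cacna1b. Their bounds thus also rest on dim sample signals. The bounds hold for the loess scaling alone. Under median centring the log2 ratios were below those of loess, at 0.74 for Cacna1f, 0.59 for Trpv1, 0.66 for Scn9a and 0.45 for Hcn4. Cacnb2 was then at 1.00, Cacng1 at 0.25 and Cacna1b at 0.22. With the scanner software's processed signals the log2 ratios were larger, at 2.42 for Cacna1f, 1.95 for Trpv1, 1.83 for Scn9a, 1.45 for Hcn4 and 1.15 for Cacng1. Of the 8 lower genes, 6 had all 8 ratios below 0 and 6 were measured in both channels on all arrays.

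Leaving out each pool in turn kept 38 of the 45 calls. Hcn4 and Cacna2d4 were no longer tested without any 1 of 4 pools, because their dim probes then missed the filter. Cacna1e was not called without rostral pool 1, 2 or 3 or caudal pool 1, 3 or 4 (log2 ratio 0.29 to 0.42, adjusted p 0.0736 to 0.128). Trpc5 was not called without rostral pool 1 or caudal pool 1 or 2 (0.18 to 0.22, adjusted p 0.0568 to 0.0633). Cacna1d and Trpm3 are described with their families.

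**Figure D2:**
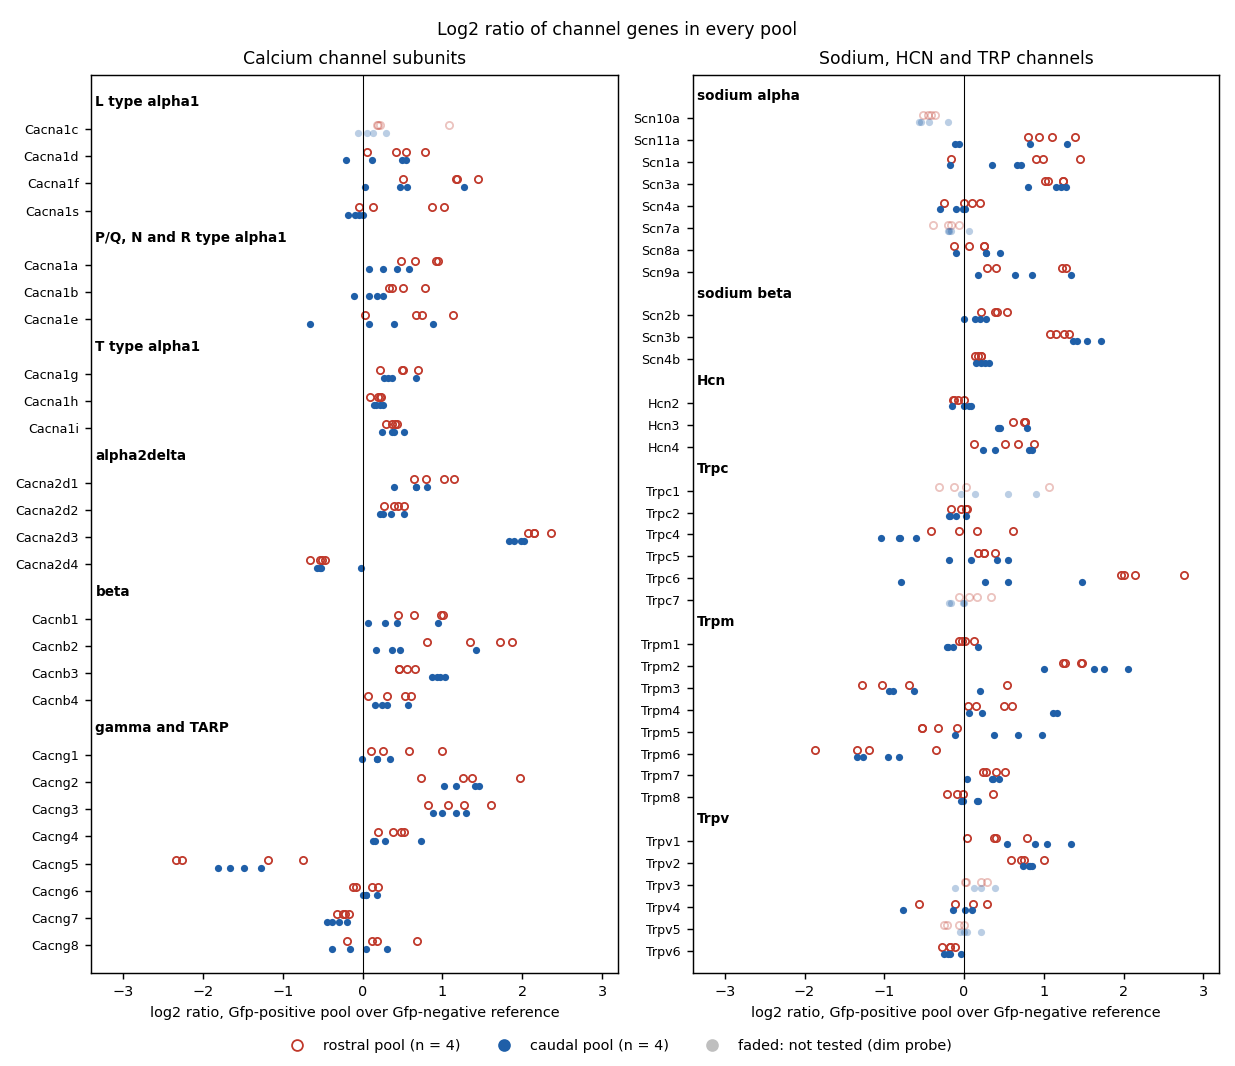
Log2 ratio to the Gfp-negative reference (x axis) of 60 channel genes (y axis, by family) in the 4 rostral pools (open red circles) and 4 caudal pools (filled blue circles). Faded genes were too dim to be tested against the reference. The far right holds Cacna2d3 in both parts and Trpc6 in rostral pools, and the far left holds Cacng5.

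Among the pore-forming calcium channel genes, 8 of the 9 tested were called higher and none lower. The single one not called was Cacna1s, the skeletal muscle channel, at 0.20. Their log2 ratios ran from 0.19 for Cacna1h to 0.83 for Cacna1f, and for Cacna1b and Cacna1f, whose reference was below background, the excess has only a lower bound.

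Cacna1d encodes the L type channel best known for pacemaking in substantia nigra neurons. Its log2 ratios were 0.78, 0.41, 0.05 and 0.54 in rostral pools 1 to 4 and 0.49, 0.12, 0.54 and -0.21 in caudal pools 1 to 4. The mean was 0.34 (SE 0.11, n = 8, adjusted p = 0.0179 by limma), with 7 of 8 pools above 0 and the parts overlapping. The call was lost without rostral pool 1 (0.29, adjusted p = 0.0502), caudal pool 1 (0.30, adjusted p = 0.0509) or caudal pool 3 (0.29, adjusted p = 0.0528). A second Cacna1d probe, tied to the gene by its RefSeq accession alone, gave -0.70, also well above background in both channels on all arrays. The probes thus disagreed in sign by more than 1 on the log2 scale, and the direction of Cacna1d depends on the probe.

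Cacna1c, the other L type channel of neurons and heart, was well above background in 1 rostral pool and in no caudal pool or reference channel. Its ratios were 0.17, 0.22, 0.19 and 1.08 in the rostral pools and 0.05, 0.13, 0.29 and -0.06 in the caudal pools. Rostral pool 4 stood alone as high, and that was the pool in which the probe was measurable. Cacna1f, a channel of photoreceptor synapses, spanned 0.51 to 1.45 in rostral and 0.03 to 1.27 in caudal pools.

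The P/Q, N and R type channels open at presynaptic terminals and feed transmitter release. Cacna1a (P/Q type) had ratios of 0.94, 0.48, 0.92 and 0.66 in rostral pools and 0.58, 0.26, 0.43 and 0.08 in caudal pools. All 8 were above 0, with a mean of 0.54 (SE 0.08, adjusted p = 0.000172), and the parts overlapped. Cacna1b (N type) had 0.78, 0.33, 0.50 and 0.37 in rostral pools and 0.17, 0.08, -0.11 and 0.25 in caudal pools, a mean of 0.30 (SE 0.07, adjusted p = 0.00315). Its rostral pools all stood above its caudal pools, although the difference between the parts was not called. Cacna1e (R type) was at 0.41 (SE 0.17, adjusted p = 0.0483), a call lost with the processed signals (adjusted p = 0.06), under median centring (0.0623), without the intensity trend (0.06) and with no filter on probes (0.0536).

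Of the low-voltage T type channels, which open near rest, Cacna1g had ratios of 0.69, 0.21, 0.50 and 0.49 in rostral pools and 0.67, 0.31, 0.27 and 0.37 in caudal pools. The mean was 0.44 (SE 0.06, adjusted p = 0.000173), with all 8 pools above 0 and no separation of the parts. Cacna1h (0.19, SE 0.03) and Cacna1i (0.38, SE 0.06) were likewise called higher with all 8 pools above 0. Accession-only second probes gave the same direction for Cacna1a (0.99), Cacna1g (0.38) and Cacna1i (1.03), with larger ratios for Cacna1a and Cacna1i.

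The alpha2delta subunits sit on the outer face of the membrane, aid channel trafficking and bind gabapentinoid drugs in the case of Cacna2d1 and Cacna2d2. Cacna2d3 had the highest ratio of the 56 genes tested by loess, while the processed signals put Cacnb2, Cacna1f and Trpm2 (2.14) above it. Its log2 ratios were 2.15, 2.15, 2.36 and 2.07 in rostral pools and 1.98, 2.02, 1.84 and 1.89 in caudal pools. The mean of 2.06 (SE 0.04, n = 8, adjusted p = 8.11e-11) is 4.16-fold above the reference. Every rostral pool lay above every caudal pool, by little.

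Cacna2d1 (0.77, SE 0.06) and Cacna2d2 (0.37, SE 0.04) were also called higher, with all 8 pools above 0. An accession-only probe of Cacna2d2 read -0.21, the opposite sign. Cacna2d4, a subunit known from the retina, was the one alpha2delta gene called lower. Its ratios were -0.66, -0.51, -0.47 and -0.53 in rostral pools and -0.02, -0.57, -0.54 and -0.53 in caudal pools, a mean of -0.48 (SE 0.07, adjusted p = 0.000173). Caudal pool 1 stood apart from the other 3 caudal pools, and the sample channel was well above background on only 3 of 8 arrays.

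All 4 beta subunits, which bind the alpha1 subunit from the cytoplasm and set its gating and surface number, were called higher. Cacnb2 was at 1.02 (SE 0.15) with its reference below background, Cacnb3 at 0.74 (SE 0.03), Cacnb1 at 0.60 (SE 0.11) and Cacnb4 at 0.35 (SE 0.08). With the scanner software's processed signals Cacnb2 read 3.05.

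The Cacng genes went both ways. Cacng2, Cacng3, Cacng4 and Cacng8 encode TARPs, which carry AMPA receptors to the synapse, Cacng5 and Cacng7 encode relatives of these, and Cacng1 and Cacng6 encode true calcium channel gamma subunits. Of the 8, 4 were called higher and 2 lower. Cacng2 (stargazin) had ratios of 1.26, 1.36, 1.97 and 0.73 in rostral pools and 1.45, 1.02, 1.17 and 1.40 in caudal pools, a mean of 1.30 (SE 0.11, adjusted p = 3.74e-06). Cacng3 had 1.60, 1.26, 0.82 and 1.07 in rostral pools and 1.30, 0.89, 0.99 and 1.17 in caudal pools, a mean of 1.14 (SE 0.09, adjusted p = 2.41e-06). Both genes were thus more than 2-fold above the reference in their mean, in every pool above 0, with the parts intermixed.

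Cacng5 was the lowest of the 56 genes tested by loess, while the processed signals put Trpm3 (-1.77) below it (-1.61). Its ratios were -2.35, -2.26, -0.75 and -1.19 in rostral pools and -1.66, -1.28, -1.81 and -1.49 in caudal pools. The mean of -1.60 (SE 0.17, adjusted p = 1.74e-05) is 3.03-fold below the reference, and the rostral pools spread around the caudal ones. Cacng7 was lower by less, at -0.29 (SE 0.03, adjusted p = 3.1e-05), and its second table probe gave -0.34. Cacng4 (0.36, SE 0.08) and Cacng1 (0.33, SE 0.10) were called higher, while Cacng6 (0.04) and Cacng8 (0.07) were not called. Median centring called Cacng6 higher (0.33, adjusted p = 0.00261). Cacng1, Cacng4 and Cacng5 are neighbours on chromosome 11, and their ratios had opposite signs. Cacng7, Cacng8 and Cacng6 are neighbours on chromosome 7.

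Sodium channel genes were called higher or not called, and none was called lower. Scn3a, the alpha subunit typical of embryonic brain, stood at 1.12 (SE 0.05, adjusted p = 4.07e-08), with 1.01 to 1.24 in rostral and 0.81 to 1.28 in caudal pools. Its 2 accession-only probes gave 0.94 and 1.19.

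Scn9a (0.78, SE 0.15) and Scn11a (0.77, SE 0.15), best known from peripheral sensory neurons, and Scn1a (0.59, SE 0.17) were also called higher. An accession-only probe of Scn1a gave 0.12 and was not called (adjusted p = 0.0602 over all probes). Scn4a, the skeletal muscle channel, was at -0.05 and not called. For Scn8a, the main channel of the adult axon initial segment, the table probe was dim (4 of 8 arrays) and was not called at 0.17. An accession-only probe that was bright on all arrays gave 0.52 (adjusted p = 9.88e-06 over all probes). Another accession-only probe, well above background on 0 sample and 3 reference arrays, gave -0.67, so the probes of Scn8a disagreed in sign.

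The sodium beta subunits are single-pass partners that act in gating and cell adhesion. Scn3b, Scn2b and Scn4b were called higher. Scn3b had log2 ratios of 1.25, 1.31, 1.15 and 1.08 in rostral pools and 1.71, 1.41, 1.36 and 1.54 in caudal pools. The mean was 1.35 (SE 0.05, adjusted p = 4.5e-09), and every caudal pool lay above every rostral pool. Scn2b (0.27, SE 0.05) and Scn4b (0.21, SE 0.05) were higher by far less. Under median centring Scn4b was no longer called, with its sign kept.

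The HCN genes differed from each other. Hcn3 was called higher at 0.62 (SE 0.05, adjusted p = 3.23e-06), with all 8 pools above 0. Hcn4 had ratios of 0.13, 0.87, 0.68 and 0.51 in rostral pools and 0.24, 0.85, 0.38 and 0.81 in caudal pools, a mean of 0.56 (SE 0.10, adjusted p = 0.000538), but its sample channel was well above background on only 4 of 8 arrays.

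Hcn2, a widely expressed neuronal subunit, had -0.08, -0.13, -0.14 and 0.00 in rostral pools and -0.15, 0.08, 0.07 and 0.00 in caudal pools. All 8 values lay close to the reference, and the mean of -0.04 was not called by loess, while median centring put it at 0.27 and called it higher.

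TRPC channels are receptor-operated cation channels downstream of phospholipase C. Trpc6 and Trpc7 are opened by diacylglycerol, and Trpc1, Trpc4 and Trpc5 form another subgroup. Against the reference the family had no common direction. Trpc6 stood at 1.30 (SE 0.21, adjusted p = 0.000313), Trpc5 at 0.24 (SE 0.08) and Trpc4 at -0.37 (SE 0.11, adjusted p = 0.0107). Neither Trpc4 (-0.03, adjusted p = 0.854) nor Trpc5 (0.14, adjusted p = 0.172) was called under median centring, and the processed signals put Trpc5 at 0.88. Trpc2, which acts in the vomeronasal organ, was not called at -0.08, and median centring turned it to 0.24 (adjusted p = 0.00943).

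TRPM genes also went both ways, with 3 of 8 called higher and 2 lower. Trpm2, an oxidant- and ADP-ribose-gated channel also known from microglia, had ratios of 1.26, 1.48, 1.46 and 1.24 in rostral pools and 2.05, 1.00, 1.75 and 1.63 in caudal pools. The mean was 1.49 (SE 0.11, adjusted p = 9.94e-07), 2.80-fold above the reference, and a second table probe gave 1.72. All 8 pools stood above the reference for Trpm2. The 5 microglial markers had a median log2 ratio of 0.20, and their summed sample signal spanned 32200 to 110000 in rostral and 28600 to 99600 in caudal pools. Their part in the Trpm2 ratio was not tested.

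Trpm4, a calcium-activated channel for monovalent cations, was at 0.48 (SE 0.14) and Trpm7, a channel with a kinase domain that passes magnesium, at 0.33 (SE 0.05). Trpm6, the other channel kinase, went the opposite way. Its ratios were -1.87, -0.36, -1.34 and -1.20 in rostral pools and -1.34, -0.81, -1.27 and -0.95 in caudal pools, a mean of -1.14 (SE 0.14, adjusted p = 5.42e-05). All 8 pools were below the reference, and the rostral pools spanned the caudal ones.

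Trpm3, a heat and steroid sensor, had -1.29, -0.68, -1.03 and 0.53 in rostral pools and -0.94, -0.63, -0.90 and 0.20 in caudal pools. The pools numbered 4 of both parts were above 0 and the other 6 below. The mean was -0.59 (SE 0.20, adjusted p = 0.0219). It was no longer called without rostral pool 1 (-0.48, adjusted p = 0.0593), rostral pool 3 (-0.52, adjusted p = 0.0581), caudal pool 1 (-0.53, adjusted p = 0.0577) or caudal pool 3 (-0.54, adjusted p = 0.0576). Other table probes of Trpm3, which were dim, gave -0.04 and 0.04. Trpm1, Trpm5 and Trpm8 were not called, at -0.04, 0.06 and 0.04. An accession-only probe of Trpm1, well above background in both channels on all 8 arrays, gave 0.30 (adjusted p = 0.00216 over all probes). Another table probe of Trpm1, not well above background in any sample, gave -0.63.

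Of the TRPV genes, Trpv2 (0.79, SE 0.04, adjusted p = 1.56e-07) and the capsaicin receptor gene Trpv1 (0.67, SE 0.10) were called higher with all 8 pools above 0. Trpv6, an epithelial calcium channel, was called lower at -0.18 (SE 0.03, adjusted p = 0.00125), with all 8 pools below 0. Trpv4, an osmosensitive channel, was not called at -0.13. Trpv1 and Trpv3 are neighbours on chromosome 11 and Trpv6 and Trpv5 on chromosome 6, and the second gene of each pair was too dim to be tested.

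The second comparison asked which channel genes differed between the rostral and the caudal Gfp-positive pools. Of 55 genes tested, 3 were called higher in rostral pools (5.45%) and 1 in caudal pools (1.82%). Over all 18170 genes tested the shares were 3.49% and 2.76%, and 6.25% were called in either direction against 7.27% of the channel genes, so the share of channel genes called is near that of the array. The rostral genes described here are the TRPC genes Trpc6 and Trpc4, and the caudal gene was the calcium channel beta subunit Cacnb3.

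The pools of the parts did not overlap for 7 channel genes (12.7%), 5 with all rostral pools above and 2 with all caudal pools above (9.09% and 3.64%). Over all genes 12.5% did not overlap, 6.43% with rostral above and 6.06% with caudal above. Beside the 4 called genes these were Cacna1b and Cacna2d3, with rostral above, and Scn3b, with caudal above. An unadjusted p below 0.05 was reached by 12 channel genes (21.8%), 8 of them higher in rostral pools, against 19% of all genes. The difference was above 0 for 63.6% of the channel genes and 51.7% of all genes.

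**Figure D3:**
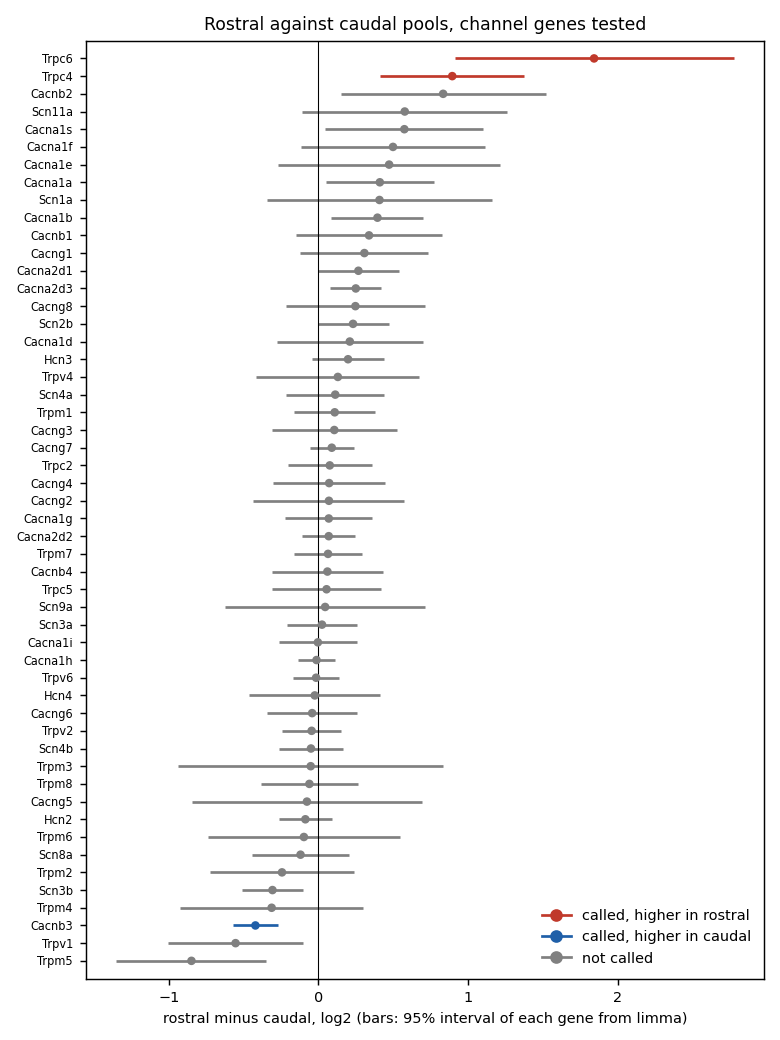
Rostral minus caudal log2 difference (x axis) of 52 channel genes tested, ordered by size, with the 95% interval of each gene from limma as bars. Genes called at an adjusted p below 0.05 are red (higher in rostral, Trpc6 and Trpc4) or blue (higher in caudal, Cacnb3), and the others are grey.

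Trpc6 had the largest difference between the parts. Its log2 ratios were 1.97, 2.14, 2.0 and 2.76 in rostral pools 1 to 4 and 0.55, -0.79, 1.48 and 0.26 in caudal pools 1 to 4. The rostral pools were all high and close together, while the caudal pools ranged from below the reference to nearly the rostral level. The means were 2.22 ± 0.37 and 0.38 ± 0.93 (SD, n = 4 each), a difference of 1.84 (SE 0.42, 95% interval 0.91 to 2.77, adjusted p = 0.0302), or 3.58-fold.

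Trpc4 read -0.07, 0.62, 0.17 and -0.42 in rostral pools, around the reference level, and -1.04, -0.81, -0.82 and -0.61 in caudal pools, all below it. The difference was 0.89 (SE 0.21, 95% interval 0.41 to 1.38, adjusted p = 0.0392), 1.86-fold, between means of 0.07 ± 0.43 and -0.82 ± 0.18 (SD, n = 4 each). An accession-only probe of Trpc4 gave a difference of 0.88, with an adjusted p of 0.108 over all probes, where the first probe had 0.0559.

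Trpc2 (0.08, SE 0.12) and Trpc5 (0.05, SE 0.16), which belong to the same family, did not pass the test, with 95% intervals of -0.21 to 0.36 and -0.31 to 0.42. That these differ from Trpc4 and Trpc6 was not tested. Trpc1 was well above background on 3 of 8 sample arrays, with values from -0.31 to 1.06 in rostral and -0.04 to 0.90 in caudal pools.

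Cacnb3 was called higher in caudal pools. Its ratios were 0.46, 0.65, 0.46 and 0.55 in rostral pools and 1.03, 0.87, 0.94 and 0.97 in caudal pools. All 8 pools were above the reference and the parts did not overlap. The rostral minus caudal difference was -0.42 (SE 0.07, 95% interval -0.57 to -0.27, adjusted p = 0.00667), 1.34-fold, between means of 0.53 ± 0.09 and 0.95 ± 0.07 (SD, n = 4 each).

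**Figure D4:**
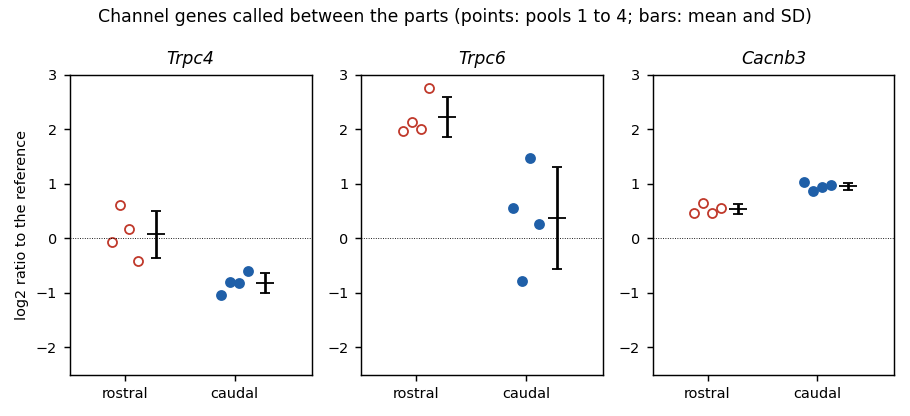
Log2 ratio to the reference (y axis) of Trpc4, Trpc6 and Cacnb3 in the 4 rostral pools (open red circles) and 4 caudal pools (filled blue circles), with the mean and SD beside them. The parts do not overlap in any of the 3 panels, and the caudal pools of Trpc6 have the widest spread, from -0.79 to 1.48.

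Cacnb3 stayed called when any 1 pool was left out, and the calls of Trpc4 and Trpc6 did not. Trpc4 was called only without rostral pool 4 (1.06). Without rostral pool 1, 2 or 3 its difference was 0.94, 0.71 and 0.86, and without caudal pool 1, 2, 3 or 4 it was 0.82, 0.90, 0.89 and 0.96 (adjusted p 0.061 to 0.105). Trpc6 lost its call without rostral pool 2, 3 or 4 (1.87, 1.91 and 1.66) and without caudal pool 1 or 4 (1.90 and 1.80, adjusted p 0.0585 to 0.0811). The arrays lay in 2 rows of 1 slide, each with 2 pools of each part. The differences in rows 1 and 2 were 2.17 and 1.51 for Trpc6, 1.20 and 0.59 for Trpc4, and -0.40 and -0.45 for Cacnb3. None of the 55 channel genes was called by limma within a row, where 12 and 8 had an unadjusted p below 0.05. Of all 18169 genes, 2379 in row 1 and 2485 in row 2 had such a p. In row 1, 0 of all genes were called, and in row 2, 103 were called higher in rostral and 83 in caudal pools. With the row as a block Trpc4 was not called (adjusted p = 0.058), nor under median centring (0.93, adjusted p = 0.0654). Trpc6 was not called with the scanner software's processed signals (2.18, adjusted p = 0.0576), and without the intensity trend both genes missed the threshold (adjusted p = 0.0523 for Trpc4 and 0.053 for Trpc6).

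Some markers of other cell types differed between the parts as well. The summed sample signal of the 5 pericyte and smooth muscle markers was 2020 to 2980 in rostral and 1300 to 1840 in caudal pools, without overlap, although all 5 stood below the reference (median -3.08). None of the 4 tested between the parts was called by limma, and 1 had an unadjusted p below 0.05. Pdgfrb had the smallest p, with a difference of 1.08 (adjusted p = 0.0689). Rgs5 was not well above background in any of the 8 sorted pools and was not tested between the parts. The summed signal of the 7 GABAergic markers was 153000 to 248000 in rostral and 110000 to 169000 in caudal pools, with overlap, and with Gad2 higher in rostral (1.09, adjusted p = 0.0342) and Tal2 and Tal1 higher in caudal pools (-1.79 and -1.01, adjusted p = 0.000665 and 0.043). Called higher in caudal pools were also Pou4f2, a marker of glutamatergic neurons (-2.78, adjusted p = 0.000665), Vim, of progenitors (-0.63, adjusted p = 0.0118), and the pan-neuronal Tubb3 (-0.39, adjusted p = 0.0019). Vim was the only 1 of 7 progenitor markers tested that was called, and Pou4f2 the only 1 of 4 glutamatergic markers tested. Of the other glutamatergic markers, Slc17a6 was at 0.17, Pou4f1 at -0.54 and Barhl1 at -0.18. Pou4f2, Tal2 and Tal1 stood far below the reference in both parts. Their means were -6.98, -5.81 and -4.75 in rostral pools and -4.20, -4.03 and -3.74 in caudal pools. Of the 10 pan-neuronal markers, Rbfox3 (0.30, adjusted p = 0.0148) and Syt1 (0.67, adjusted p = 0.0377) were called higher in rostral pools, against Tubb3 alone in caudal pools. The summed signal of the 12 dopaminergic markers was 1590000 to 1730000 in rostral and 1840000 to 2010000 in caudal pools, also without overlap, with 3 of the 12 called higher in caudal pools and 0 in rostral pools (2 at an unadjusted p below 0.05). The part of these cell types in the TRPC and Cacnb3 differences was not tested.

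Among the other genes, the closest to a call was Trpm5, a calcium-activated channel of taste cells. It read -0.09, -0.53, -0.52 and -0.33 in rostral pools and 0.97, -0.11, 0.68 and 0.38 in caudal pools. All rostral pools were below the reference and 3 of 4 caudal pools were above it, but the ranges of the parts overlapped. The difference was -0.85 (SE 0.22, adjusted p = 0.0569), and the processed signals of the scanner software called it (-2.15, adjusted p = 0.0335). Its probe was dim, with the sample well above background in 2 of 4 rostral and all 4 caudal pools, and the reference on 5 of 8 arrays.

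The separated but uncalled genes differed little. Scn3b had a difference of -0.31 (SE 0.09, adjusted p = 0.0887), Cacna2d3 of 0.25 (SE 0.08, adjusted p = 0.0948) and Cacna1b of 0.39 (SE 0.14, adjusted p = 0.142). Cacnb2 differed by 0.83 (SE 0.31, adjusted p = 0.165), with 1.87, 0.81, 1.34 and 1.72 in rostral pools and 0.36, 0.17, 0.46 and 1.41 in caudal pools. Caudal pool 4 was its only high caudal pool, and without it Cacnb2 was called (1.10, adjusted p = 0.0462). The dim accession-only probe of Cacnb2 gave a difference of -0.03.

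The pacemaking candidates were not called between the parts. The 95% intervals of the difference were -0.28 to 0.70 for Cacna1d, 0.05 to 0.77 for Cacna1a, -0.22 to 0.36 for Cacna1g, -0.27 to 0.09 for Hcn2 and -0.46 to 0.41 for Hcn4. Across the 51 genes not called, 43 had an interval within 1 of 0, which bounds a difference at 2-fold, and 25 within 0.5 of 0. The SE of the difference ran from 0.06 to 0.42 with a median of 0.16. Small differences between the parts could therefore not be told from none for many of these genes.

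Scn2a, the main sodium channel alpha subunit of young axons, lies outside the genes chosen because the annotated table names it Scn2a1. It is the neighbour of Scn3a on chromosome 2. By its brightest probe it was above the reference (0.52, SE 0.07, adjusted p = 0.000122) and higher in rostral pools, at 0.93 ± 0.31 against 0.10 ± 0.14 in caudal pools (SD, n = 4 each), a difference of 0.83 (SE 0.14, adjusted p = 0.00977). A second probe gave 0.77 and 0.10. The probe that the table itself names gave 0.74 in rostral and 0.92 in caudal pools, so the probes of Scn2a disagree on the direction between the parts.

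Promoter sequences are given for the genes called between the parts, to show the sequence at their starts. RefSeq promoters on GRCm38.p6, from 250 bases before to 50 after the start, were at hand for 50 of the 64 genes, with 64 starts. They are written 5′ to 3′ on the gene's strand, with CpG dinucleotides in capitals. Those of Trpc4 and Trpc6 show rostral genes, and the 2 starts of Cacnb3 show the caudal gene.
Trpc4, chr3:54155807-54156106, plus strand: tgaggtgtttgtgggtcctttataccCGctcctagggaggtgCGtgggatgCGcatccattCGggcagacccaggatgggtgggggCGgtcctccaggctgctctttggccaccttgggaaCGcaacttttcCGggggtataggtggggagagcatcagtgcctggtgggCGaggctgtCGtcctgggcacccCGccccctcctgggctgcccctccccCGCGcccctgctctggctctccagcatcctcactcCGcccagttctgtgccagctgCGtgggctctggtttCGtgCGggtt
Trpc6, chr9:8543892-8544191, plus strand: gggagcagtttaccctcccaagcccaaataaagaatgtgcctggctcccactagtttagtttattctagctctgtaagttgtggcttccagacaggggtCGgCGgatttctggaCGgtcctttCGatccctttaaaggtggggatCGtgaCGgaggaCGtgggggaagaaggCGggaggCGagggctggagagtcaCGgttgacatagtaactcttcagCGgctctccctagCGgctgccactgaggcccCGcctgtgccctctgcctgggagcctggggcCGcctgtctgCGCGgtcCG
Cacnb3, chr15:98632078-98632377, plus strand: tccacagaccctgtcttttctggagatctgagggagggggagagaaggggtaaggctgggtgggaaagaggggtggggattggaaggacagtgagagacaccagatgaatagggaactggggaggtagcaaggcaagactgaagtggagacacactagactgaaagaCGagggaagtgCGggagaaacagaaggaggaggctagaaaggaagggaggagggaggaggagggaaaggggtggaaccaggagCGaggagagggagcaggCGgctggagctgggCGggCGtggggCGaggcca
Cacnb3, chr15:98634517-98634816, plus strand: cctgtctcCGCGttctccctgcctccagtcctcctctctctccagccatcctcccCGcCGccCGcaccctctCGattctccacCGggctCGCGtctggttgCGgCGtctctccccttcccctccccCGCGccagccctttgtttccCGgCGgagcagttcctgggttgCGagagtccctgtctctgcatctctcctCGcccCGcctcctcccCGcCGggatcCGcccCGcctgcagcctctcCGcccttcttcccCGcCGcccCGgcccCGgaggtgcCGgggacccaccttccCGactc

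The Trpc4 window holds 16 CpG and the Trpc6 window 17, with GC contents of 66.0% and 60.0%. The Cacnb3 windows hold 7 and 29 CpG, with 59.7% and 72.0% GC. The medians were 9.0 CpG and 57.3% GC over the 64 channel gene promoters, and 7 CpG and 52.7% GC over all 32851.

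All windows were searched on both strands for AAAGGTCA, the NBRE bound by Nr4a2, a transcription factor needed by dopaminergic neurons, and for TAATCC, the bicoid type motif bound by Pitx and Otx factors. No match of one motif overlapped a match of the other in the channel gene promoters. The NBRE was in 2 of the 64 channel gene promoters (3.12%), against 1.51% of all promoters, and TAATCC in 5 (7.81%), against 7.06%. Neither was in the windows of Trpc4, Trpc6 or Cacnb3. The 2 NBRE matches were in Scn8a and Trpv6, shown with 12 bases on either side and the motif in capitals, at positions -173 and -167 from the start.
Scn8a, chr15:100936086-100936117, plus strand: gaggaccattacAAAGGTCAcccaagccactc
Trpv6, chr6:41636553-41636584, minus strand: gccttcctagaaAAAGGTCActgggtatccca

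Neither gene was called between the parts. A match describes the letters only, and binding was not measured.

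Partners of the channels were read from lists. Of 54 genes of calcium handling and calcium channel partners tested, 20 were higher and 21 lower than the reference, with a median of -0.02. Over all genes 34.6% were higher and 36.8% lower, so this list is near the rate of the array. Among those with the smallest p were Calm2, a calmodulin gene (-0.46, SE 0.02), Ryr3, a ryanodine receptor of calcium stores (2.10, SE 0.07), Camk2b, a calmodulin-dependent kinase subunit (0.79, SE 0.03), and Itpr2, an IP3 receptor (-2.31, SE 0.11). Between the parts 6 of 54 were higher in rostral and 0 in caudal pools by limma (5 had an unadjusted p below 0.05 with caudal higher), with a median of 0.01, as over all genes. The shares over all genes were 3.49% and 2.76%. The leading ones were Vsnl1, a neuronal calcium sensor (1.59, SE 0.20, adjusted p = 0.00243), Camk2d (0.76, SE 0.09, adjusted p = 0.00212), Ryr3 (0.70, SE 0.13, adjusted p = 0.014) and Camk2b (0.35, SE 0.06, adjusted p = 0.00935).

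Of 36 genes of sodium channel partners and other cation channels tested, 18 were higher and 8 lower than the reference, with a median of 0.20, against 34.6% and 36.8% of all genes. Fam155a, a subunit of the sodium leak channel complex (1.11, SE 0.03), Fgf13, an intracellular partner of sodium channels (1.84, SE 0.08), and Mcoln1, a lysosomal TRP channel (0.81, SE 0.03), were among the higher ones. Asic4, an acid-sensing channel relative, was lower (-2.47, SE 0.09). Between the parts 7 of 36 were higher in rostral and 2 in caudal pools, against 3.49% and 2.76% of all genes.

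The rostral ones with the smallest p were the following. Cntn1, an axonal adhesion protein, differed by 0.63 (SE 0.08, adjusted p = 0.00284), Sptbn4, a spectrin, by 0.73 (SE 0.12, adjusted p = 0.00891), Nfasc, neurofascin, by 0.66 (SE 0.13, adjusted p = 0.0172), and Fgf12, an intracellular sodium channel partner, by 0.95 (SE 0.17, adjusted p = 0.0118). Nrcam, an adhesion partner of neurofascin, was higher in caudal pools (-0.25, SE 0.06, adjusted p = 0.0342), and Ank3, the ankyrin that anchors sodium channels at the axon initial segment, was not called (-0.10, SE 0.11, adjusted p = 0.743). The part of the cell types whose markers differed between the parts, given above, was not tested for these genes either.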

How the data were processed

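Sorted Gfp-positive pools (4 rostral, 4 caudal, grouped by the labels) and a common reference were hybridised on 8 two-colour arrays. The deposited scanner files hold median spot intensities per channel, not normalized, and per the file headers the authors used Agilent Feature Extraction (version 10.7.3.1). They also hold other columns, 0 or 1 flags deposited by the authors per spot for well above background, saturated and outlier. The submitters' processing notes also name RMA, without a role. In a deposited table of the series 8 value columns match no sample and were not used.

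In R 4.3.3 with limma 3.58.1, background was corrected by normexp (offset 50), arrays were normalized by loess with control and outlier spots at weight 0, and spots were averaged per probe. Probes were named by RefSeq accession (GRCm38.p6), then table symbol, except that the channel genes were read from table probes alone, and 18 probes tied to them by accession alone entered an alternative chosen after seeing the data. No probe of a channel gene was saturated. The fit (lmFit, eBayes with trend) ran on all genes, with Benjamini-Hochberg adjustment over all of them and two-sided p-values. It was tested on simulated data. Each of the 21 channel genes called between the parts, highest or lowest against the reference (6 each), or known for pacemaking and spiking was chosen to be given in full, and partner genes by smallest p. The channel genes, lists and rules were chosen with earlier results of these data known. Same-numbered rostral and caudal pools did not deviate together, so no block was used. Results of some of these genes are not reported here, and figures of single genes leave them out. Alternatives are in the closing section.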

Additional observations from a re-analysis of the deposited data

Results flagged for a closer look

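In each part the 4 pools of the 21 genes chosen for full description were searched for a pool far from the other 3, and 2 of 42 groups of pools held one. Chance flags about 1 in 20 such groups. Cacna2d4 in caudal pool 1 had a log2 ratio of -0.022, where the other caudal pools lay between -0.57 and -0.53. Cacna1c in rostral pool 4 had 1.08, where the other rostral pools lay between 0.17 and 0.22.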

How the results depend on the processing

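Of the 37 higher genes, 24 remained where both channels had to be well above background on all 8 arrays. That filter left 35 channel genes to test, and 5420 of all 15041 genes tested were then called higher. The 3 rostral calls became 1 without the intensity trend and 1 with the replicate block. The 1 caudal call became 2 with the processed signals of the scanner software and 2 with the replicate block. Within slide row 1 and within slide row 2 there were 0 rostral and 0 caudal calls among the channel genes, each row holding 2 pools of a part. Over all genes there were 0 calls within row 1, and 103 rostral and 83 caudal calls within row 2. Leaving out 1 pool at a time gave 33 to 37 higher, 6 to 8 lower, 1 to 2 rostral and 1 to 2 caudal genes. The mean ratio of Hcn2 turned from -0.04 to 0.27 under median centring (adjusted p = 0.000602), and the cause was not tested. The labels do not say that a replicate number pairs pools. Deviations of same-numbered pools correlated at 0.02, -0.01, -0.06 and -0.01, and no pool correlated best with its own number. With the replicate number as a block, Cacnb3 (adjusted p = 0.042) stayed called, Trpc4 (0.0829) and Trpc6 (0.0584) did not, and Trpm5 (0.0466) was gained. No background subtraction, Aquantile, the mean over probes, table symbols alone, no filter and probes added by accession kept all 4 calls between the parts. Signal over background limits the dim genes, of which some have bounds and some no test. Others were called as plain ratios. Among these the reference was well above background on only 1 of 8 arrays for Scn4b, 1 for Trpc5 and 3 for Trpm4.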
